A study of Mus musculus with 20 samples.

Results

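High mobility group (HMG) proteins are small, abundant chromatin proteins, and 8 genes that encode them were followed here: Hmgb1, Hmgb2, Hmgb3, Hmga1, Hmgn1, Hmgn2, Hmgn3 and Hmgn5. They were picked by symbol, with their levels by stage already known, and all 8 had a row both among the 37994 genes of the developmental plates and among the 36104 genes of a second set of plates. The level of each gene was read per plate, over all wells that passed a quality filter and over the wells with at least 1 count of Pou4f1, the transcription factor that marks most habenula neurons.

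The cells were single cells of mouse habenula, a paired nucleus of the dorsal diencephalon, sequenced with Cel-seq2, which tags the 3′ end of each RNA with a unique molecular identifier (UMI) in the wells of a plate. The developmental set came from the Brn3a-tauLacZ line, whose name joins Brn3a, the older name of Pou4f1, to a tau-lacZ reporter. Of its 15 plates, 1 is from embryonic day (E) 12, and E11, E13, E15, E18, postnatal day (P) 4, P7 and adults have 2 each. The second set is from the C57BL/6 strain, all at E18: left and right habenula filled 2 plates each and a mix of both sides filled 1. The labels give no treatment, no allele state of the reporter, no age for the adults and no statement of how many animals a plate holds. A p-value here therefore measures a spread over plates, which may be technical. Where cycling wells are compared with others of the same plate, it is the spread of that difference from plate to plate.

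HMGB proteins bend DNA through their HMG boxes, HMGA proteins bind the minor groove of AT-rich DNA through short AT hooks, and HMGN proteins bind the nucleosome core itself. The families compete with linker histone H1 for chromatin, and several members are known to be more abundant in dividing and immature cells than in mature ones. Hmgb1 is also known as a signal that cells release on damage, and Hmgb2 as a member of the SET complex, a group of proteins that includes the histone chaperone Set.

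The filter kept 3729 developmental wells, of which 2933 held Pou4f1, and 1082 wells of the C57BL/6 set, of which 727 did. Summed counts per plate ranged from 758697 to 7760372 in the developmental set and from 1849863 to 6586449 in the C57BL/6 set. A few plates stood apart. E13 plate 2 had 106 cycling wells among 137 and a summed level of the ependymal and choroid plexus markers of 3943 CPM (counts scaled to a total of 1000000 per plate). Adult plate 2 had 59 cycling wells among 342 (17.3%), the highest share of the developmental plates after E13 plate 2. E18 plate 1 held Pou4f1 in 28.1% of its wells and had the highest summed level of the 9 progenitor markers, 3975 CPM. Adult plate 1 kept 56 wells, with 11063 CPM of oligodendrocyte markers, a median mitochondrial share of 11.9% against 4.10% to 6.56% in the other 19 plates, and the lowest median count per well, 5058. The summed level of the 10 habenula markers ran from 718 CPM in E18 plate 1 to 4714 CPM in adult plate 2. Up to 2 of the 10 were at 0 in a plate, 2 in E13 plate 2 and E15 plate 1 and 1 each in E11 plate 1, E13 plate 1 and E18 plate 1. Wells with Pou4f1 were not free of these markers. They held 5016 CPM of oligodendrocyte markers in adult plate 1 and 2532 CPM of ependymal and choroid plexus markers in E13 plate 2. In E18 plate 1 they held 1799 CPM of progenitor and 1432 CPM of ependymal and choroid plexus markers. Likeness between the classes of wells is therefore no check of cell type. Levels by stage are given plate by plate, except where wells with exactly 1 count of Pou4f1 are compared. The part of these other cells in the levels was not tested. In counts summed over a plate, fewer cells of a type and less RNA per cell cannot be told apart.

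In the GENCODE gene models of mm10, Hmgb2 (ENSMUSG00000054717) lies at chr8:57511907-57515999, Hmgb3 (ENSMUSG00000015217) at chrX:71555918-71560676, Hmgn1 (ENSMUSG00000040681) at chr16:96120618-96127729 and Hmgn2 (ENSMUSG00000003038) at chr4:133964738-133968650, each overlapping 0 other annotated genes. Hmga1 (ENSMUSG00000046711, chr17:27556497-27563674) and Hmgn3 (ENSMUSG00000066456, chr9:83109948-83146685) each overlap 2 genes on the other strand, and Hmgn5 (ENSMUSG00000031245, chrX:109004534-109013404) overlaps 1 on its own strand. Hmgb1 (ENSMUSG00000066551) has long models, chr5:149046702-149184489, which overlap 7 other genes, Uspl1 among them on the other strand. In the last 500 transcript bases, where a 3′ tag falls, 88.9% of the 50-base windows of Hmga1 also occur in Hmga1b and 65.6% of those of Hmgn2 also occur in Gm10282. The table gives Hmga1b 1 count against 1631 for Hmga1, and Gm10282 143 against 3725 for Hmgn2, in the developmental wells. No label says how reads common to both copies were assigned, so the values of Hmga1 and Hmgn2 are uncertain to that extent. Pseudogene rows named after members held few counts, at most 23 in the developmental wells (Hmgb1-rs16) and 15 in the C57BL/6 wells (Hmgb1-ps4).

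The bases just upstream of the RefSeq start are shown for Hmgb1, Hmgb2 and Hmgb3 and for Hmgn2. In the main comparison of both sets of plates, Hmgb2 and Hmgn2 differed between cycling and non-cycling wells while Hmgb1 and Hmgb3 did not pass. Each run holds the 250 bases before the RefSeq start in GRCm38.p6, read 5′ to 3′ on the gene's strand. Capitals mark CCAAT or its reverse complement ATTGG, known as the box bound by NF-Y, and TTTGAA or its reverse complement TTCAAA, known as the CHR element of many cell cycle promoters. The windows are chr8:57511593-57511842, plus strand for Hmgb2, chrX:71555667-71555916, plus strand for Hmgb3, chr5:149053058-149053307, minus strand for Hmgb1 and chr4:133967992-133968241, minus strand for Hmgn2. The windows of Hmgb1 and Hmgn2 lie inside the span of their own gene models given above. That of Hmgb3 ends just before its model, and that of Hmgb2 ends at 57511842, before its model starts at 57511907. The bases that follow the window occurred whole in a GENCODE transcript of the gene for Hmgn2 but not for Hmgb1, Hmgb2 or Hmgb3. For these genes the RefSeq start was thus not matched to a transcript.
Hmgb2: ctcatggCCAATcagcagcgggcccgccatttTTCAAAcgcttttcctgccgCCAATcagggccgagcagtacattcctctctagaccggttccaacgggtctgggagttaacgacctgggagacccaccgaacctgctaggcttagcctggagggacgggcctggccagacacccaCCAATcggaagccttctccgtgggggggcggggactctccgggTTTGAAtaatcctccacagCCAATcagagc
Hmgb3: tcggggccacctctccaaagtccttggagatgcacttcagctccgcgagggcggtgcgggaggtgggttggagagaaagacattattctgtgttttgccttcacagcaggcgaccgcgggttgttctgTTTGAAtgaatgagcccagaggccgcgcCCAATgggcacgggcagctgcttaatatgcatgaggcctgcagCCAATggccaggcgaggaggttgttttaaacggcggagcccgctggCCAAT
Hmgb1: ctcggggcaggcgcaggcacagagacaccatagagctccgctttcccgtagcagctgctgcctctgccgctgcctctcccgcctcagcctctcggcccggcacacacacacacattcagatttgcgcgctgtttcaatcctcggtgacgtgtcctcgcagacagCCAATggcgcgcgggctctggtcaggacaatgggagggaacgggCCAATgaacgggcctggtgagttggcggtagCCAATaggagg
Hmgn2: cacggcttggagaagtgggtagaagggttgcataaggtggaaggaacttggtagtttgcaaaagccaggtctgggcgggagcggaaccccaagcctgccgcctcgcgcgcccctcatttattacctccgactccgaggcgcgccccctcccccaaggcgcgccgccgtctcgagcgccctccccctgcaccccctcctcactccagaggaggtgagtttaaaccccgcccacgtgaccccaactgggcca
Hmgb2 holds 4 CCAAT and 2 TTTGAA matches, Hmgb3 holds 3 and 1, Hmgb1 holds 3 and 0, and Hmgn2 holds 0 of either. Of 27025 RefSeq promoter windows of the same length, 2.98% hold at least 3 CCAAT matches, 0.918% at least 4, 16.3% at least 1 TTTGAA match and 1.88% at least 2. Hmgn1 and Hmgn5 hold 2 CCAAT matches each and 0 of TTTGAA, and Hmga1 holds 0 of both. Hmga2, a relative that is not a member but also passed between cycling and non-cycling wells in both sets, holds 0 of both. GGGCGG or its reverse complement CCGCCC, the GC box, was also searched and is not capitalised; Hmgb2 and Hmgb3 hold 1 each, Hmgb1 holds 0 and Hmgn2 holds 2, and 32.9% of the windows hold at least 1. A match is a string of letters and not a measured site. By symbol, 7 of the 8 members matched the promoter table, all but Hmgn3.

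Across stages the members took different courses, which are given as a description with no test because the members were chosen with these levels known. From E11 to P7, Hmgb2, Hmgb3, Hmgn1 and Hmgn2 were lower at P7 in both plates, Hmga1 and Hmgn3 were higher in both, and the plates of Hmgb1 and Hmgn5 overlapped. Among genes with a mean of at least 1 CPM, 40.5% were lower at P7 and 40.4% higher by the same reading, so nothing is read from these counts of members. In the wells with Pou4f1 the same members were lower and higher between these stages, where 41.7% of genes were lower and 39.4% higher. At E11 and P7 these wells were 88.1% to 92.2% of the kept wells of a plate, so both readings share most of their wells. From P7 to the adult, Hmgb3, Hmga1, Hmgn1 and Hmgn3 were lower in both adult plates and Hmgb1, Hmgb2 and Hmgn5 higher, while Hmgn2 overlapped, where 25.3% of genes were lower and 31.5% higher. In the wells with Pou4f1, Hmgb3, Hmgn1, Hmgn2 and Hmgn3 were lower in the adult, Hmgb1 and Hmgn5 were higher, and the plates of Hmgb2 and Hmga1 overlapped, where 25.2% of genes were lower and 28.9% higher. Across birth, from E18 to P4, 5 members were lower at P4 (Hmgb1, Hmgb2, Hmgn1, Hmgn2 and Hmgn5), against 36.5% of genes, and Hmga1 and Hmgn3 were higher, against 22.5%. In the wells with Pou4f1 Hmgb3 took the place of Hmgb1 among the 5 that were lower, with 35.6% of genes lower and 25.7% higher. Not all of these directions held when each well was thinned to 2000 UMIs. Then the plates of Hmga1 overlapped between E11 and P7 and those of Hmgn5 were higher at P7, the plates of Hmgb1, Hmga1 and Hmgn1 overlapped between P7 and the adult, Hmgb2 was lower in the adult instead of higher, and the plates of Hmgn5 overlapped between E18 and P4. In thinned wells with Pou4f1, Hmga1 overlapped between E11 and P7, Hmgb1 and Hmgn3 overlapped between P7 and the adult, Hmgb2 was lower in the adult, and Hmgb3 (0.284 and 0.543 UMIs per well at E18, 0.298 and 0.340 at P4) and Hmgn5 overlapped between E18 and P4 while Hmgb1 was lower at P4. For Hmgb2, adult plate 1 stood at the level of 3 counts, and in thinned wells the P7 and adult levels lay near that of 1 UMI. No change of Hmgb2 is therefore read between P7 and the adult in either direction. Each adult comparison includes adult plate 1, with its higher mitochondrial share, and the part of RNA quality in them was not tested.

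**Figure D1:**
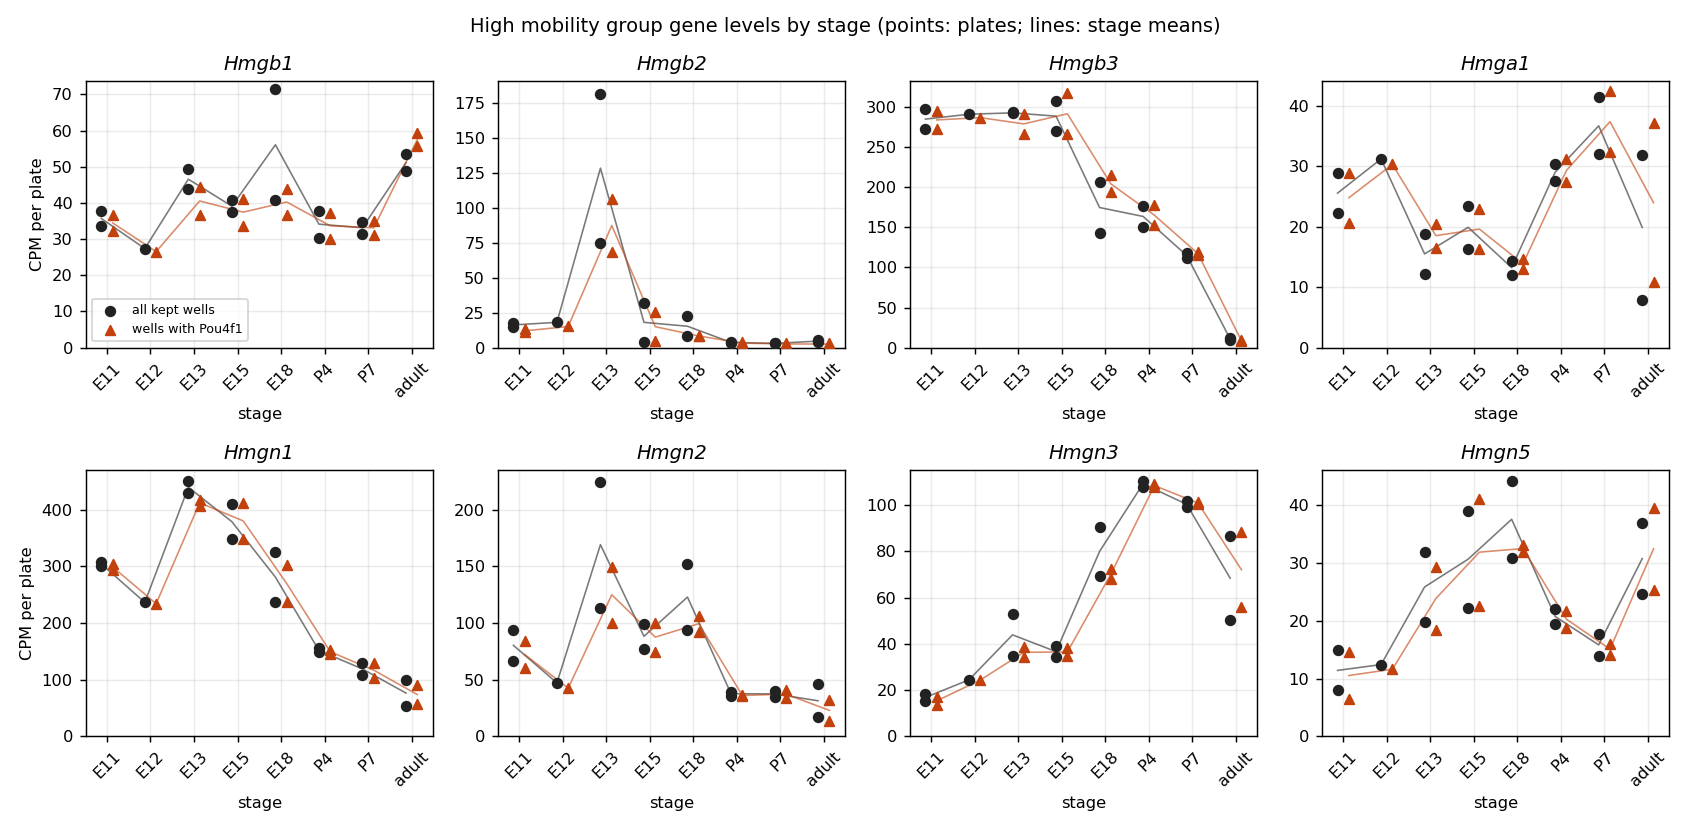
Level of each gene in CPM (vertical axes, each from 0) at each stage (horizontal axes). Each point is 1 plate, black circles for all kept wells and orange triangles for wells with Pou4f1, and lines join stage means. Hmgb3 stays near 270 to 307 CPM to E15 and reaches 9.23 and 12.5 CPM in the adult, whereas Hmgn3 is highest at P4.

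Hmgb3, the HMG-box member best known from blood stem cells and early embryos, had the largest fold between P7 and the adult of the 8. Its E11 plates measured 272 and 298 CPM, that of E12 measured 291, those of E13 measured 293 and 292, and those of E15 measured 307 and 269.9. At E18 it measured 143 and 207 CPM, after birth 177 and 150.2 (P4) and then 112 and 118 (P7), and the adult plates gave 9.23 and 12.5. The 7 plates up to E15 lay close together and above all later ones, and both adult plates lay far below every other plate. The adult mean was 26.2-fold below that of E11 and 10.6-fold below that of P7.

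In the wells with Pou4f1, Hmgb3 measured 273 and 295 CPM at E11, 115 and 119 (P7), and 8.99 and 7.96 in adults. At E11 and P7 these were 88.1% to 92.2% of the kept wells of a plate, so the like course is no separate evidence. In the adult plates they were 37.5% and 52.6%. After each well was thinned to 2000 UMIs, 50.2% and 49.6% of wells at E11 had at least 1 Hmgb3 UMI, against 21.6% and 19.1% (P7) and 2.5% and 3.67% (adult). Without thinning the shares were 92.2% and 93.3% (E11), 76.1% and 68.4% (P7) and 8.93% and 13.7% (adult). Thinning left out 4 and 6 wells at E11, and 16 and 15 in the adult. The adult value of Hmgb3 over all kept wells rests on 7 and 63 UMIs, and adult plate 1 had only 21 wells with Pou4f1.

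Hmgb2, the HMG-box protein known from proliferating cells and germ cells, was highest at E13. Before its peak it measured 17.6 and 14.9 CPM (E11) and 18.1 (E12), at the peak 75.1 and 182, and later 32.0 and 4.16 (E15) and 22.4 and 8.29 (E18). After birth the P4 plates gave 4.24 and 3.22 CPM, the P7 plates 2.96 and 3.17 and the adult plates 3.95 and 5.37. The value of adult plate 1 is the level of 3 counts. In thinned wells Hmgb2 had 0.00617 and 0.0142 UMIs per well (P7) and 0 and 0.00612 (adult), levels near that of 1 UMI from which no change is read. Every plate after birth was below every plate of E11 to E13 and of E18, and only E15 plate 2 reached down to them. In thinned wells P7 plate 2 was also above E18 plate 2 (0.00935). Plates of the same stage lay far apart at E13 and E15. E13 plate 2 was the one with 106 cycling wells and 3943 CPM of ependymal and choroid plexus markers, and E15 plate 2 had 1 cycling well among 302. The part of these cells in the gaps was not tested.

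In the wells with Pou4f1, Hmgb2 measured 13.1 and 10.9 CPM at E11, 68.5 and 107 at E13, then 8.57 and 8.10 (E18) and 2.16 and 3.13 (P7). It was lower in wells with Pou4f1 than in wells without in 14 of 15 developmental plates, with a median difference of −1.65 on the log2(CPM + 1) scale, and in 5 of 5 C57BL/6 plates. Of the 15 developmental plates, Hmgn2 was higher in wells with Pou4f1 in 2 and Hmgn1 and Hmgn3 in 4 each. Hmgb1 and Hmgn5 were higher in 6 each, Hmgb3 in 8 and Hmga1 in 10. The share of all genes with such a count was not computed. At the threshold itself, wells were summed over the plates of a stage or side, so plates of unlike level mix in these values. The 48 wells of E11 with exactly 1 count of Pou4f1 gave 61.2 CPM of Hmgb2 and the 65 wells with 0 gave 94.4. The E13 wells gave 233 and 237 CPM. For later stages the wells with 1 count of Pou4f1 held few Hmgb2 counts: 6 (E15), 4 (E18), 4 (P4), 2 (P7) and 0 (adult). Their levels lay below those of the wells without Pou4f1, but no direction is read from so few counts. The same applies to the C57BL/6 plate of both sides (8.90 against 12.0 CPM, the former from 4 counts). Wells with 1 count were the higher ones at E12 (138 with 1 count and 90.6 with 0) and on the C57BL/6 left (26.7 and 18.1) and right (78.0 and 16.0). For Hmgb3 the E11 wells gave 334 and 304 CPM, and those of E12 gave 363 and 394.

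Hmgb1, the most widely expressed HMG-box protein, showed no ordered course in its total level. It measured 37.7 and 33.7 CPM at E11, the P7 plates gave 31.4 and 34.8 and the adult plates 48.8 and 53.5, and E18 plate 1 was the highest at 71.4. In thinned wells it had 0.0432 and 0.0745 UMIs per well (P7) and 0 and 0.104 (adult), so these stages overlapped there. Underneath this total, the spliced and unspliced counts differed in opposite directions between E11 and the plates after birth, though not along a single step at birth. Spliced Hmgb1 measured 25.9 and 22.1 CPM at E11, and after birth 8.31 and 10.6 (P4), 10.3 and 13.7 (P7) and 17.1 and 13.9 (adult). Unspliced Hmgb1 measured 11.8 and 11.6 CPM at E11, and after birth 22.1 and 27.3 (P4), 21.1 and 21.1 (P7) and 31.6 and 39.6 (adult). Both E11 plates were above all 6 plates after birth in spliced counts and below all of them in unspliced counts. Between these stages E12 measured 13.3 CPM spliced and 14.1 unspliced, so its spliced level lay within the range after birth. The plates of E13 and E15 measured 22.3 to 29.2 CPM spliced and 15.2 to 20.2 unspliced. The E18 plates measured 30.3 and 20.3 CPM spliced and 41.1 and 20.4 unspliced, and E18 plate 1 had the highest unspliced level of all 15.

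The unspliced share of Hmgb1 was thus 31.3% (95% exact binomial interval 24.8 to 38.3, 195 UMIs) and 34.5% (27.3 to 42.3, 165 UMIs) at E11. It was 51.5% at E12, 36.4% to 45.3% in the plates of E13 and E15, and 57.5% and 50.0% at E18. It was 72.6% (65.5 to 79.0) and 72.1% (66.0 to 77.6) at P4, 67.2% (60.9 to 73.1) and 60.6% (53.4 to 67.5) at P7, and 64.9% (47.5 to 79.8) and 74.0% (68.3 to 79.1) in the adult. The intervals cover counting error only. The unspliced share of all genes together was 22.4% and 20.8% at E11 and 22.2% and 24.6% at P4. The other members had unspliced shares of 0 to 9.76% in every developmental plate. In the C57BL/6 plates the Hmgb1 share was 59.0% and 39.5% on the left, 55.2% and 34.7% on the right and 32.7% on both sides, so the plates of a side lay apart by more than their counting intervals (53.7 to 64.2 and 31.0 to 48.5 on the left). Whether the unspliced counts come from Hmgb1 itself or from the genes that its models overlap was not tested.

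**Figure D2:**
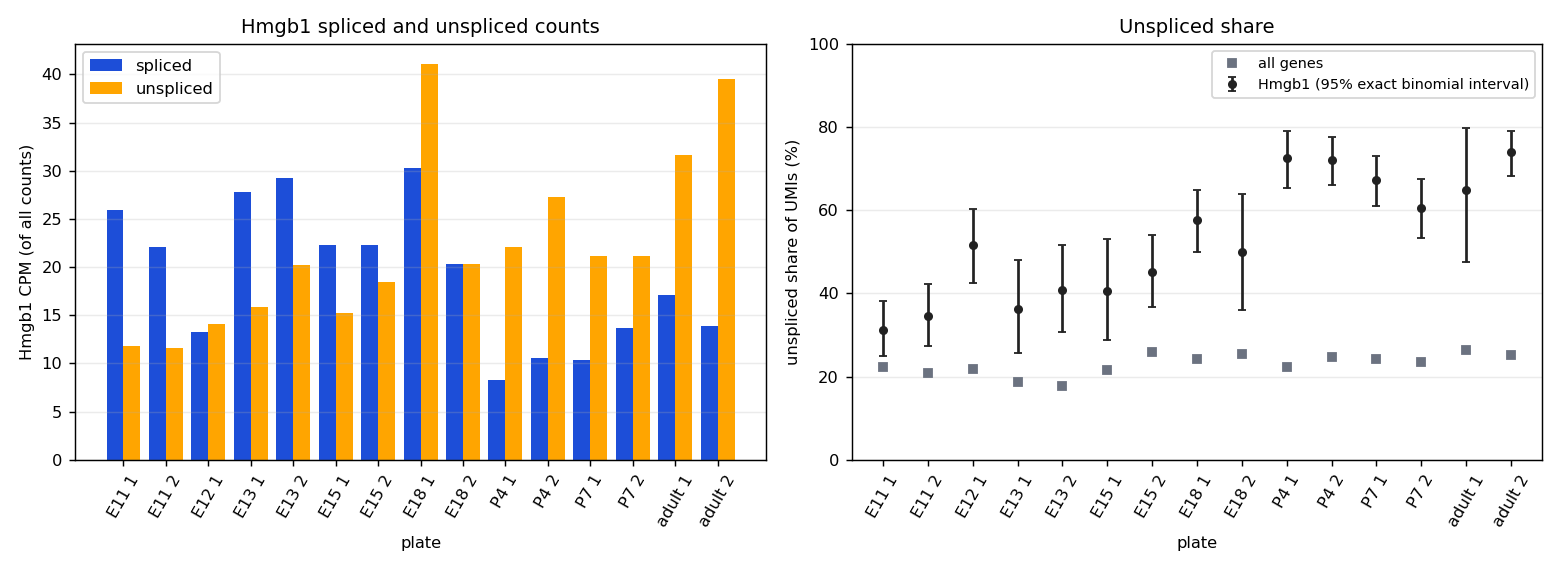
Left, Hmgb1 spliced (blue) and unspliced (orange) CPM in each of the 15 developmental plates, bars from 0. Right, the unspliced share of Hmgb1 UMIs per plate with its 95% exact binomial interval (black) and that of all genes (grey squares); Hmgb1 goes from 31.3% in E11 plate 1 to 74.0% in adult plate 2, all genes stay between 17.7% and 26.4%.

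Hmga1, the AT-hook member, is known as an embryonic gene. It measured 28.8 and 22.3 CPM (E11), 31.2 (E12), 18.7 and 12.2 (E13), 16.3 and 23.5 (E15) and 14.4 and 12.1 (E18). After birth the P4 plates gave 30.4 and 27.6 CPM and the P7 plates 32.0 and 41.3. The plate of E12 was thus above both P4 plates and below both P7 plates. In thinned wells it was above both P7 plates (0.0643 UMIs per well against 0.0617 and 0.0567) but no longer above both P4 plates. The adult plates lay apart, at 7.91 and 31.8 CPM, the first of them from 6 UMIs. The level at P4 was 2.19-fold that at E18, and the plates of these stages did not overlap in either class of wells. In thinned wells the stage means were 7.13 (E18) and 33.9 per 1000000 (P4), a wider gap, with E18 plates of 0.0192 and 0.00935 UMIs per well, the second of them the level of 1 UMI. The E13 mean was 5.64 in thinned wells against 15.5 CPM, with plates of 0.0148 and 0.00775 UMIs per well, the second again the level of 1 UMI. Its relative Hmga2, the other AT-hook gene, ran the other way, with 16.6 CPM in both E11 plates, 31.3 and 55.3 in the E13 plates, and 1.36 and 0.613 (P4) and 1.93 and 0.352 (P7) after birth.

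Hmgn1, which loosens compact chromatin and acts on histone modification, was highest at E13 and lowest in the adult. The E11 plates gave 307 and 301 CPM, E12 gave 236, E13 gave 429 and 451, E15 gave 410.1 and 348, and E18 gave 325 and 237. After birth the P4 plates gave 155 and 148 CPM, the P7 plates 108 and 129 and the adult plates 54.1 and 98.6. All 6 plates after birth lay below all 9 embryonic plates, and in the order of stage means from E12 to the adult no neighbouring pair overlapped. In the wells with Pou4f1 the values were almost the same, 305 and 293 CPM at E11 and 103 and 130.1 at P7. At both stages these are most of the kept wells, so this likeness is no separate evidence.

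Hmgn2, the closest relative of Hmgn1, measured 94.3 and 66.4 CPM at E11, then 114 and 225 (E13), 77.1 and 99.6 (E15) and 152 and 93.5 (E18). After birth it measured 39.2 and 36.0 CPM (P4), 34.5 and 40.3 (P7) and 46.1 and 16.7 (adult). The plates after birth lay below all embryonic ones, with E12 at 47.2 CPM just above them. This order did not hold in thinned wells, where adult plate 1 had 0.175 UMIs per well (40 wells), above E12 (0.0964), E11 plate 2 (0.112), E13 plate 1 (0.156) and E15 plate 1 (0.164). In the highest plates, E13 plate 2 and E18 plate 1, the wells with Pou4f1 measured 149.5 and 107 CPM.

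Hmgn3, a member known from the eye, pancreas and brain, was higher from E18 to P7 than before. It was at 15.5 and 18.2 CPM (E11), 24.4 (E12), 34.7 and 53.1 (E13), 39.1 and 34.2 (E15) and 90.6 and 69.3 (E18). After birth it was at 110.4 and 108 CPM (P4) and 99.0 and 102 (P7), and the adult plates gave 50.1 and 86.7. Every plate from E18 to P7 was above every plate of E11 to E15, and P7 was 5.97-fold above E11. In thinned wells with Pou4f1 the first order did not hold, since E18 plate 2 (0.0745 UMIs per well) was below both E13 plates (0.0962 and 0.103). In the wells with Pou4f1 it measured 13.5 and 17.2 CPM at E11 and 100.4 and 101 at P7. Thinned to 2000 UMIs, 4.26% and 2.65% of wells at E11 had at least 1 Hmgn3 UMI, against 20.9% and 20.0% at P4. Without thinning the shares were 19.1% and 20.0% at E11 and 74.6% and 75.5% at P4.

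Hmgn5, an X-linked member with a long acidic tail, was lowest at the first stages. Its plates gave 14.9 and 7.97 CPM (E11), 12.4 (E12), 19.9 and 31.9 (E13), 39.1 and 22.3 (E15), 44.3 and 30.9 (E18), 22.0 and 19.5 (P4), 17.8 and 13.9 (P7) and 36.9 and 24.7 (adult). Both E18 plates and both adult plates were above both P7 plates. The values rest on 28 to 138 UMIs a plate.

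Over the 15 plates, the Pearson correlation of log2(CPM + 1) between members was highest for Hmgb3 with Hmgn1 (0.84), Hmgn1 with Hmgn2 (0.79) and Hmgb2 with Hmgn1 (0.76). It was lowest for Hmga1 with Hmgn5 (−0.68). These points share plates, stages and depth, and the values are a description. Among 8475 genes with a mean of at least 20 CPM, the genes most like each member were Gjc1, F2r and Rrm1 for Hmgb2 (0.95, 0.94 and 0.94), Gm9844 and Ybx1 for Hmgb3 (0.99 and 0.99) and Gm37746, Gm47056 and Gm10701 for Hmgb1 (0.93, 0.92 and 0.92). They were Eif3e, Cbx1 and Sec61b for Hmgn1 (0.99, 0.98 and 0.98), Larp7, Grpel1 and Rpl38 for Hmgn2 (0.97, 0.96 and 0.94) and Trip4, Ano1 and Ndufc2 for Hmgn3 (0.95, 0.94 and 0.94). For Hmgn5 they were Nfia, Cep97 and Gbe1 (0.93, 0.89 and 0.88), and for Hmga1 they were Sec24b, Fnta and Chst10 (0.90, 0.90 and 0.87).

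In the main comparison of both sets of plates, cycling wells differed from non-cycling wells of the same plates in 2 members, Hmgb2 and Hmgn2. A well was called cycling when at least 2 of 10 cell cycle genes (such as Mki67 and Top2a, none of them a member) were detected and non-cycling when 0 were. The 2 sums of counts per plate were compared over the 11 developmental plates and the 4 C57BL/6 plates that had at least 10 wells of each kind, with the plate as a term. This comparison does not use the stage contrast by which the members were chosen. In the developmental plates 8.69% of 13693 genes passed an adjusted p of 0.05 (edgeR quasi-likelihood test, Benjamini-Hochberg), 4.49% higher and 4.2% lower in cycling wells, and 2 of 8 members did, both higher. In the C57BL/6 plates 2.66% of 13285 genes passed, 2.0% higher and 0.655% lower in cycling wells, and 3 of 8 members did, all higher.

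Hmgb2 measured 86.0 and 92.0 CPM in the cycling wells of the E11 plates against 3.47 and 8.20 in their non-cycling wells. The same pairs were 92.4 against 4.13 (E12), 239 against 18.0 and 213 against 14.3 (E13), 84.1 against 22.8 in E15 plate 1 and 124 against 5.41 in E18 plate 1. After birth they were 23.0 against 2.94 and 23.7 against 2.20 at P4, 11.9 against 2.37 in P7 plate 1 and 7.38 against 5.67 in adult plate 2. The cycling wells were higher in 11 of 11 plates, a pattern seen in 1.39% of genes, and the non-cycling wells never passed 22.8 CPM. The pairs after birth rest on few Hmgb2 counts, in 12 and 11 cycling wells (P4), 14 (P7) and 59 (adult). No direction is read from any of these plates singly. The non-cycling value of E13 plate 2 comes from 11 wells. The fitted log2 difference was 3.18 ± 0.29 (SE; 9.05-fold; edgeR quasi-likelihood test, adjusted p = 6.99e-08).

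The C57BL/6 plates gave Hmgb2 at 28.9, 46.6, 126 and 47.2 CPM in cycling wells (left plate 1, both right plates and the plate of mixed sides, in this order), against 3.39, 3.63, 2.71 and 3.75 in non-cycling wells. The difference was 3.84 ± 0.40 on the log2 scale (edgeR quasi-likelihood test, adjusted p = 7.10e-04), with cycling wells higher in 4 of 4 plates, a pattern seen in 14.2% of genes. With at least 3 of the 10 genes required, 2 of these plates kept 10 wells of each kind, and the difference was 4.29 with an adjusted p of 0.0990 in the same edgeR test.

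Hmgn2 measured 141 ± 98.7 CPM in cycling wells and 75.1 ± 67.9 in non-cycling wells (SD, n = 11 plates) and was higher in 9 of 11 plates. The exceptions were E13 plate 2, with 11 non-cycling wells, at 229.9 against 257 CPM, and P4 plate 2, at 31.6 against 35.4. The log2 difference was 0.94 ± 0.16 (SE; edgeR quasi-likelihood test, adjusted p = 6.33e-04), and in the C57BL/6 plates it was 1.10 ± 0.20 (adjusted p = 0.0177), higher in 4 of 4. There the call held in 4 of 9 alternatives, whose adjusted p from edgeR or DESeq2 ran from 0.00126 to 0.840. It was lost with single plates left out: the adjusted p from edgeR was 0.128 without right plate 1 and 0.195 without the plate of both sides.

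Hmgn5 passed in the C57BL/6 plates alone, with 33.9, 57.3, 69.9 and 62.9 CPM in cycling wells against 21.2, 25.2, 17.4 and 29.6 in non-cycling wells (log2 difference 1.14 ± 0.26; edgeR quasi-likelihood test, adjusted p = 0.0439). Its call held in 4 of 9 alternatives and is lost when either right plate or the mixed plate is left out (adjusted p of 0.205, 0.0901 and 0.191 in edgeR). Over the 9 alternatives its adjusted p from edgeR or DESeq2 ran from 0.00744 to 0.784. In the developmental plates its log2 difference was 0.28 ± 0.21 (adjusted p = 0.462 in edgeR). The difference between the sets was not tested.

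Hmgb1 came close to the threshold in the developmental plates, with 58.6 ± 27.0 CPM in cycling wells and 40.3 ± 14.3 in non-cycling wells (SD, n = 11) and a log2 difference of 0.47 ± 0.15 (edgeR quasi-likelihood test, adjusted p = 0.0557). It passed in 6 of 17 alternatives, among them the 7 plates of E11 to E18 alone (0.73, adjusted p = 0.0189), an alternative added after the data were seen. It also passed without E13 plate 2, P4 plate 2 or adult plate 2 (adjusted p of 0.0390, 0.0146 and 0.0264 in edgeR). In the C57BL/6 plates it was 0.58 ± 0.17 (adjusted p = 0.0997 in edgeR).

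Hmgb3 gave the smallest difference, 0.01 ± 0.10 on the log2 scale in the developmental plates, where an interval of 2 SE runs from −0.18 to 0.20. It was −0.12 ± 0.15 in the C57BL/6 plates. Hmga1 gave 0.21 ± 0.20 and −0.14 ± 0.39, Hmgn1 gave 0.21 ± 0.10 and 0.26 ± 0.16, and Hmgn3 gave 0.39 ± 0.16 and 0.04 ± 0.20. None of these 4 genes passed in the main comparison of either set; Hmgn1 and Hmgn3 passed in 2 and 1 of 18 alternatives in the developmental plates. Hmga2, beside them, rose by 3.24 ± 0.59 in the developmental plates and 1.99 ± 0.34 in the C57BL/6 plates (edgeR quasi-likelihood test, adjusted p = 0.0010 and 0.0138). Hmga2 was higher in cycling wells in 8 of 11 developmental plates, all but E18 plate 1, P4 plate 1 and adult plate 2, and in 4 of 4 C57BL/6 plates. It passed in 16 of 18 and in 6 of 9 alternatives, and not in the C57BL/6 plates without right plate 1 (adjusted p = 0.123 in edgeR).

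**Figure D3:**
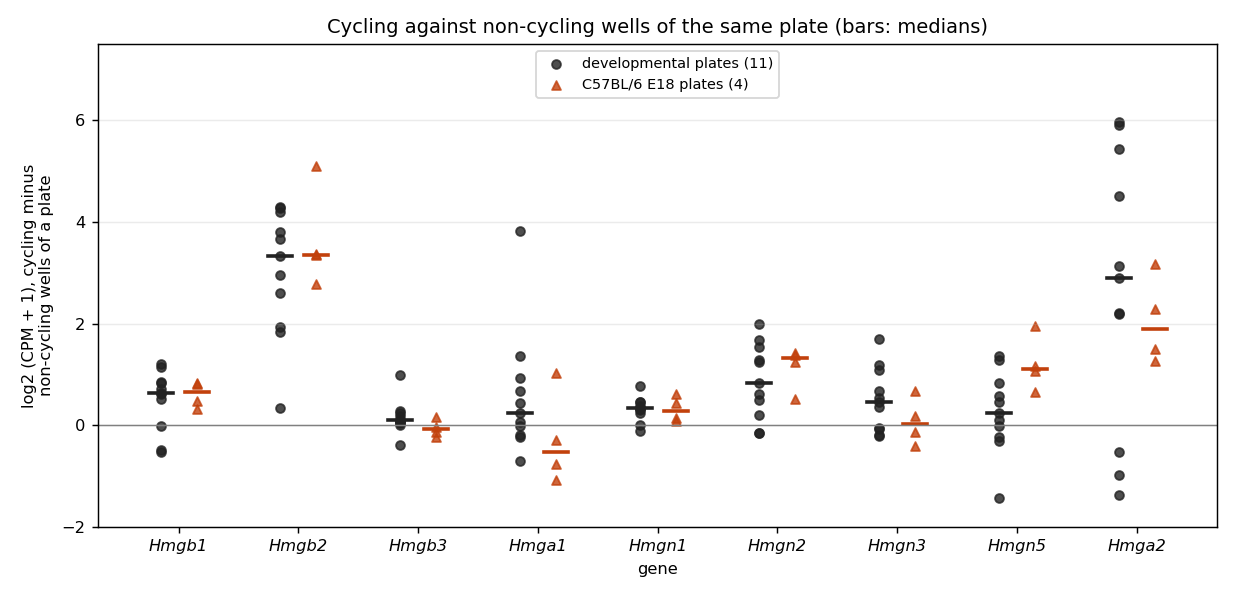
Difference in log2(CPM + 1) between cycling and non-cycling wells of the same plate (vertical axis) for the 8 members and Hmga2 (horizontal axis). Each point is 1 plate, black circles for 11 developmental plates and orange triangles for 4 C57BL/6 plates, and bars are medians. All Hmgb2 points lie above 0, the lowest of the developmental plates at 0.33 in adult plate 2. Hmgb3 points run from −0.38 in E13 plate 2 to 0.99 in adult plate 2 and lie above 0 in 9 of 11 developmental plates and 1 of 4 C57BL/6 plates.

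Markers of other cells moved with this comparison. In the developmental plates 8 of 9 progenitor markers were higher in cycling wells and 9 of 10 neuron markers and 6 of 10 habenula markers lower, each past the same threshold. So were 3 of 10 oligodendrocyte, 2 of 8 astrocyte and 2 of 8 vascular markers (higher) and 1 of 9 intermediate progenitor markers (lower). In the C57BL/6 plates 6 of 9 progenitor, 2 of 6 astrocyte, 1 of 7 oligodendrocyte and 1 of 8 dissociation response genes were higher in cycling wells, and 1 of 10 neuron and 1 of 10 habenula markers lower. Sox2, a progenitor gene, measured 111 to 466 CPM in cycling and 1.74 to 363 in non-cycling wells. Against only the non-cycling wells that lack Pou4f1, possible in 9 plates, the log2 difference was 2.23 for Hmgb2 (edgeR adjusted p = 0.0259) and 0.65 for Hmgn2 (0.149). Over the plates of both sets, the median counts of cycling wells were 0.87 to 2.22 times those of non-cycling wells. Of the wells called cycling in the plates compared, from 16.7% (P4 plate 1) to 58.1% (C57BL/6 plate of both sides) had Mki67, the marker of dividing cells, with 21.4% in P7 plate 1 and 23.7% in adult plate 2. The part of cell identity and of the cycle in these differences was not tested.

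The second comparison independent of stage, left against right habenula at E18, called none of the 8 members. Hmgb2 measured 7.77 and 17.3 CPM on the left, 5.07 and 17.6 on the right and 7.29 in the plate of both sides. Hmgb1 measured 59.0 and 69.8 on the left and 38.0 and 63.2 on the right, and Hmgb3 measured 221 and 220.4 against 262 and 226. Hmgn3 and Hmgn5 were the most even, the former at 80.9 and 78.4 CPM against 82.7 and 84.2 and the latter at 24.3 and 24.9 against 25.3 and 26.0. In Hmgb2, Hmgn1 and Hmgn2 the right plates lay on either side of both left ones.

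The log2 differences, right minus left, ran from −0.35 ± 0.24 for Hmgb1 to 0.15 ± 0.22 for Hmgn1 (SE), and each had an adjusted p of 1.0 in edgeR's quasi-likelihood test. Of the 8, 0 had an unadjusted p under 0.05 in edgeR, and DESeq2 called 0, also with 0 at an unadjusted p under 0.05. Intervals of 2 SE were narrow for Hmgn3 (−0.33 to 0.45) and wide for Hmgb2 (−1.21 to 0.98), so a level of Hmgb2 that is 2-fold lower on the right lies within the error of these plates. In all 18489 genes 0.00541% passed, a single gene, Alas2, which makes haem in red cells and was 2.95 lower on the right on the log2 scale (named after its value was seen). The red cell markers summed to 19048 and 17219 CPM in the left plates and 3410 and 265 in the right plates. Hmga2 measured 37.0 and 21.7 CPM on the left and 11.0 and 11.8 on the right, a log2 difference of −1.40 ± 0.34 with an adjusted p of 1.0 in edgeR; it passed in 1 of 11 alternatives.

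**Figure D4:**
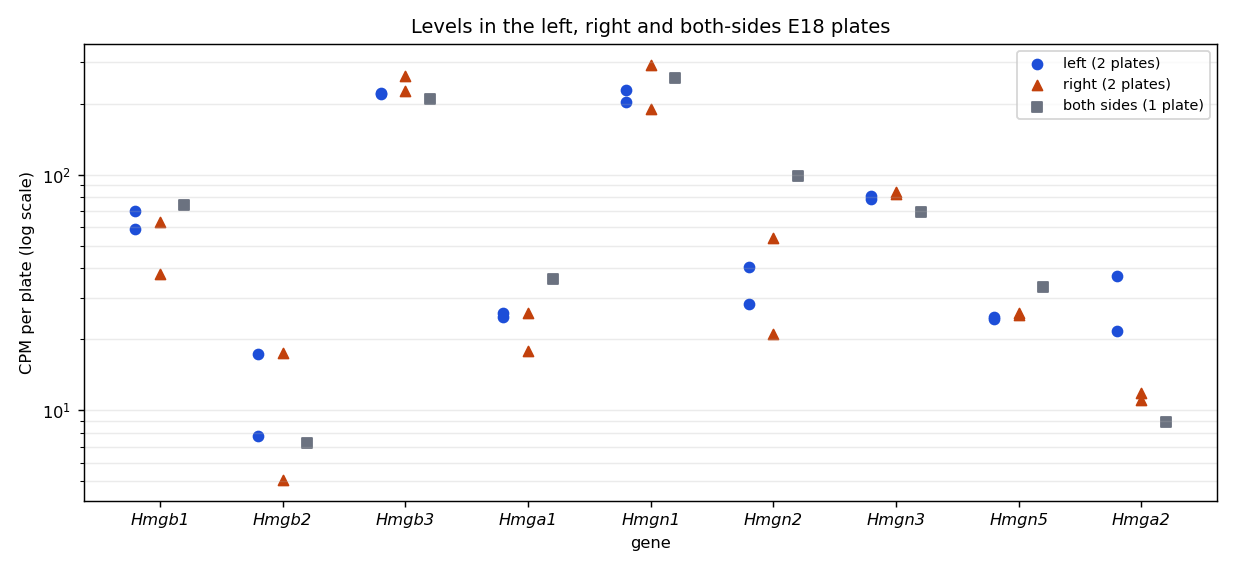
Level in CPM (vertical axis, log scale) of the 8 members and Hmga2 (horizontal axis) in the C57BL/6 plates at E18. Each point is 1 plate, blue circles for left, orange triangles for right and a grey square for both sides. Left and right points overlap or lie close for the members, and the Hmga2 points of the left lie above those of the right.

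The members were set beside 4 groups of genes with related roles, which were tested by stage. These groups, too, were listed with earlier results of the same plates known, so their counts are a description and no independent evidence of a direction. From E11 to P7, 28.6% of 17453 genes passed (edgeR quasi-likelihood test, Benjamini-Hochberg, adjusted p under 0.05), 13.2% lower and 15.4% higher at P7, with a median log2 difference of 0.03 over all genes. Of 22 other genes that encode HMG domains or AT hooks, 9 fell and 1 rose, with a median of −0.55. Hmga2 fell from 16.6 to 1.14 CPM in the means, Tox3 from 113.9 ± 0.71 to 13.3 ± 3.41 and Lef1, a Wnt pathway factor, from 648 ± 14.9 to 123 ± 8.26 (SD, n = 2 each). Tcf7, a relative of Lef1, rose from 0.79 ± 0.25 to 9.94 ± 1.12 CPM. Cell type markers moved with this comparison. At P7, 5 of 9 intermediate progenitor markers were lower and 1 higher, 4 of 9 progenitor markers lower, 7 of 10 habenula, 6 of 10 oligodendrocyte, 3 of 8 vascular and 3 of 9 dissociation response genes higher, 2 of 8 astrocyte markers higher and 1 lower, and 2 of 10 neuron markers higher and 3 lower. Their part in these changes was not tested.

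Among 17 genes of the SET complex and histone chaperones 3 fell and 0 rose, with a median of −0.51. Set, the chaperone that gives the complex its name, fell from 325 ± 13.4 to 75.0 ± 18.0 CPM (log2 difference −2.07 ± 0.23), Asf1a from 43.6 ± 5.86 to 23.0 ± 1.62 and Supt16 from 83.7 ± 9.75 to 48.2 ± 0.21. Of 4 linker histones tested, the proteins with which HMG proteins compete, 1 fell, H1fx, from 84.5 ± 4.18 to 35.7 ± 0.95 CPM. Of 5 genes for HMGB1 receptors and partners 1 fell, Cd24a, which binds HMGB1 at the cell surface, from 777 ± 4.22 to 82.2 ± 1.41 CPM. From P7 to the adult, 3.58% of genes passed, 1.76% higher and 1.82% lower in the adult. Smarce1 (102 ± 1.55 to 35.9 ± 17.2 CPM), Pbrm1 (348 ± 6.66 to 192 ± 26.6), both chromatin remodelling subunits, and Cd24a (to 16.8 ± 6.93) fell, and 0 genes of these groups rose. In the same comparison 7 of 10 oligodendrocyte markers rose, with a median log2 difference of 4.44, as did 3 of 9 dissociation response genes and 1 of 8 astrocyte markers, and 2 of 10 neuron markers fell. Their part, and that of the mitochondrial share of adult plate 1, was not tested. When each of the 4 plates compared was left out in turn, H1fx and Supt16 passed in 0 of 4 fits, Asf1a, Smarce1, Pbrm1 and Cd24a in the adult in 1 of 4, Tcf7 in 2 of 4 and Hmga2 in 3 of 4. Tox3, Lef1, Set and Cd24a from E11 to P7 passed in 4 of 4.

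In the comparison of cycling wells of the developmental plates, 9 of the 17 SET complex and chaperone genes rose and 0 fell, led by Asf1b (1.95 ± 1.41 to 18.8 ± 9.83 CPM), Chaf1b (3.84 ± 3.81 to 16.2 ± 12.2) and Chaf1a (4.06 ± 2.84 to 13.6 ± 7.04; SD, n = 11), which place histones on new DNA. In the C57BL/6 plates 2 of 17 rose, Asf1b and Anp32e (83.6 ± 13.2 to 164 ± 19.0 CPM, SD, n = 4). With 1 plate left out they passed in 1 of 4 and 2 of 4 fits; Asf1b was lost without either right plate or the mixed plate and Anp32e without right plate 1 or the mixed plate. Of the other HMG-domain genes, Hmga2, Tcf7l1 (15.8 ± 23.2 to 38.4 ± 27.3 CPM) and Ssrp1 (84.2 ± 15.3 to 114 ± 30.1) rose in the developmental plates and Tcf7l2 (2489 ± 1408 to 2014 ± 1229) fell. Ssrp1 passed in 10 of 18 alternatives and in 6 of 11 fits with a plate left out. Against non-cycling wells without Pou4f1, the signs of Tcf7l1 and Tcf7l2 turned, to −0.67 and 0.18. Hmga2 and Tcf7l1 rose in the C57BL/6 plates, where Tcf7l1 measured 20.1 ± 7.40 CPM in non-cycling and 67.9 ± 37.1 in cycling wells. Tcf7l1 passed there in 4 of 9 alternatives and in 1 of 4 fits with a plate left out, the one without left plate 1. Cd24a fell in the cycling wells of the developmental plates (515 ± 370.5 to 397 ± 269 CPM, SD, n = 11). This call held in 6 of 18 alternatives and in 2 of 11 fits with a plate left out, and against non-cycling wells without Pou4f1 its adjusted p was 0.417 in edgeR's quasi-likelihood test.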

How the data were processed

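Cel-seq2 libraries of single cells in 20 plates of 384 wells were deposited as tables of total, spliced and unspliced expected counts per gene and well. The submitters' processing notes name Trim Galore, STAR 2.5.3a and the mm10 build. No source used here names the counter or the annotation. The deposited values, expected counts, equal whole UMI numbers corrected for collisions among 4096 possible 6-base UMIs, as read from the values. Spike-in rows (92) were left out. A well was kept if it had 1000 or more counts outside mitochondrial genes, 500 or more genes detected and no more than 20% mitochondrial counts. Counts were summed per plate, and CPM are counts scaled to 1000000 over all genes. Sums were rounded and tested with edgeR 4.0.16 (quasi-likelihood, TMM, filterByExpr, Benjamini-Hochberg at 0.05) in R 4.3.3, with DESeq2 1.42.0 as an alternative, and the scripts were tested on simulated data. The fit by stage used the 14 plates of stages with 2 plates, and left against right used all 5 C57BL/6 plates. Other alternatives changed the filters, the wells, the cycling rule, the plate term and the plates included. Per-plate values are limited by UMI number, from 3 to 1698 UMIs per member. Intervals are exact binomial (Clopper-Pearson, 95%) and cover counting error only. Gene models are GENCODE's for mm10, and promoter windows are RefSeq's for GRCm38.p6.

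The members and the gene lists were chosen with earlier results of these data known. Levels by stage and the unspliced shares were described without a test for that reason. Named genes were all members, Hmga2, the 3 genes most like each member among those of at least 20 CPM, and, from the lists of other HMG-domain genes, linker histones, SET complex and histone chaperones, and HMGB1 receptors and partner, the 3 largest called changes in each direction. Of the genes most like the members, 1 is not reported here. Replicate numbers did not mark a shared source in the labels.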

Additional observations from a re-analysis of the deposited data

How the results depend on the processing

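Counts of genes called depended on the settings, and so did some calls of members. In the C57BL/6 cycling comparison, Hmgn2 and Hmgn5 each passed in 4 of 9 alternatives. Left against right called 1 gene, against 33 without a filter, 0 in wells with Pou4f1, 6 with the replicate block and 0 to 42 when a plate was left out. The developmental cycling comparison called 1190 genes, against 1956 without a filter, 234 against non-cycling wells without Pou4f1, 543 after thinning and 650 to 1573 with a plate left out (650 without E11 plate 1, 719 without E12). The C57BL/6 cycling comparison called 353, against 617 with DESeq2, 1503 without a filter, 16 with at least 3 cycling genes and 73 to 1244 with a plate left out (1244 without left plate 1, 77 without right plate 1, 73 without both sides). E11 against P7 called 4995, against 9556 from its 4 plates alone and 2107 to 2341 with a plate left out. P7 against adult called 625, against 1411 with DESeq2, 1766 without a filter and 27 to 1074 with a plate left out (27 and 28 without P7 plates 1 and 2, 60 without adult plate 1, 1074 without adult plate 2). Some signs turned, among them those of the called differences of Tcf7l1 (1.83) and Tcf7l2 (−0.42). Left against right, Hmgb2 was 0.0652 and Hmgn5 −0.11 in wells with Pou4f1, Hmgn2 was −0.0365 with the replicate block, and with a plate left out Hmgb2 ran from −1.23 to 0.53, Hmgb3 from −0.000311 to 0.25, Hmgn1 from −0.18 to 0.40 and Hmgn2 from −0.66 to 0.65. In the developmental cycling comparison Hmgb3 was −0.0567 without a filter and −0.00882 to 0.073 with a plate left out, and against wells without Pou4f1 Hmgn1 was −0.0198, Tcf7l1 −0.67 and Tcf7l2 0.18. In the C57BL/6 cycling comparison Hmgb3 was 0.12 and Hmga1 0.36 with at least 3 cycling genes, Hmga1 was 0.33 against wells without Pou4f1 and −0.83 to 0.13 with a plate left out, and Hmgn3 was −0.10 without a filter and −0.13 to 0.19 with a plate left out. The cause was not tested. Of the other log2 differences under all alternatives, 508 kept sign and side of the threshold, 76 lost and 10 gained the call. These values cover members and list genes, among them genes that the main comparison did not call. Of 64 stage levels, thinning moved 6 by over 1.5 times: adult Hmgb2 (4.66 to 1.53 CPM), Hmgb1 (51.1 to 26.0) and Hmgn2 (31.4 to 53.7), Hmgb2 at P7 (3.06 to 5.09), and Hmga1 at E13 (15.5 to 5.64) and E18 (13.2 to 7.13). Thinned wells were not fitted in the C57BL/6 set, where 1 plate qualified. The fit of E11 to E18 plates was chosen after seeing the data.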
